A study of Mus musculus with 27 samples.

Results

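The 5 X-linked genes Aifm1, Pdk3, Ndufb11, Fundc1 and Slc25a5, all protein-coding and all encoding proteins of mitochondria, were followed through Xist-driven silencing. They were chosen by name with earlier results of these data known. All 5 were found in both X-chromosome tables, which together list 276 genes. Libraries were made from chromatin-associated RNA, which is rich in nascent transcripts, of female mouse ES (embryonic stem) cells of the hybrid background 129S X Cast. In every line used here the promoter of Xist on the 129S X had been exchanged for a doxycycline-responsive (TetOn) promoter, and Bgl stem-loops had been placed at the Xist 3' end. The parental cells are called WT. A CIZ1 knockout (CIZ1KO), a line labelled SpenKO and described in the series text as SpenRRM, and cells with a mutated Spen SPOC domain (SPOCmut) were compared with WT. Sample titles of WT, CIZ1KO and SpenKO hold the word BglHalo, whereas those of SPOCmut do not. Any further difference of SPOCmut behind this cannot be told apart from its mutation. Each line was sampled without doxycycline (0 h) and after 24 h at 1.0 to 1.5 µg/mL, with 2 libraries per group for WT, CIZ1KO and SpenKO and 3 for SPOCmut. WT also had 2 libraries at 3 h, SpenKO had 1 at 3 h, and WT and CIZ1KO had 1 library each of neural precursor cells (NPC) at day 30. Whether the NPC received doxycycline is not clear from the labels.

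ES cells were grown on fibroblast feeders, and the part of feeder RNA in the ratios was not tested. The SPOCmut libraries came from clones C10, C2 and G1, whereas the labels name no separate clones or cultures for the replicates of the other lines. Each p-value rests on a spread pooled over all libraries of a fit. For the WT, SpenKO and SPOCmut comparisons this mixes differences between the SPOCmut clones with those between replicates of unstated kind. For the comparisons with CIZ1KO it is a spread among libraries of unstated kind and may be technical only. A line cannot be told apart from its genotype. The tables hold allelic ratios and no levels, so the labelled cell types and the knocked-out genes were not checked. Replicate libraries correlated over genes by 0.745 to 0.905, and the lowest value belonged to the CIZ1KO libraries at 0 h.

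The X inactivation pathway begins with Xist, a long noncoding RNA that spreads along the X in cis and recruits SPEN through its RNA-binding domains. The SPOC domain of SPEN contacts corepressors, and CIZ1 is a nuclear matrix protein that helps hold Xist RNA in place. Most mitochondrial proteins are made from nuclear genes, and several of these lie on the X. PDK3 is a kinase that phosphorylates and so inhibits pyruvate dehydrogenase, the entry point of pyruvate carbon into the citric acid cycle. AIFM1 is a flavoprotein of the intermembrane space that supports the respiratory chain and can move to the nucleus in cell death. NDUFB11 is an accessory subunit of respiratory complex I, FUNDC1 is an outer membrane receptor for mitophagy, and SLC25A5 is an ADP/ATP carrier of the inner membrane.

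The value given for each gene is the share of its allele-assigned reads that came from the 129S X. A value of 0.5 means equal reads assigned to both X chromosomes, and a bias of the assignment toward 1 allele was not tested. Xist itself lay between 0.933 and 0.999 in the 17 libraries of the Spen table and between 0.972 and 0.999 in the 10 of the CIZ1 table. A fall after doxycycline is thus a lower share of RNA from the chromosome coated by induced Xist. Without levels, less RNA from that X and more from the Cast X cannot be told apart. Read depth is unknown for these fractions, so no interval from counting error is given.

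The 5 genes are spread over the X at lower coordinates than Xist (mm10, as deposited). Fundc1 spans 17556568 to 17572297 on the minus strand, 85.9 Mb from Xist. Ndufb11 spans 20615325 to 20617564 on the minus strand, 82.8 Mb from Xist. Slc25a5, the only member on the plus strand, spans 36795651 to 36798806, 66.7 Mb from Xist. Aifm1 spans 48474943 to 48513563 on the minus strand at 54.9 Mb, and Pdk3 spans 93764615 to 93832095 on the minus strand at 9.63 Mb. GENCODE vM21 gives their longest coding transcripts 5, 3, 4, 16 and 12 exons in the same order. In that annotation only Ndufb11 overlaps another gene, Rbm10, which starts head to head with it on the other strand. The deposited coordinates of this pair share 63 bases.

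The promoters of Pdk3 and Aifm1, the members with the largest falls, and of Slc25a5, which did not fall, are shown to set the start regions of these contrasting genes side by side. The sequences are those of RefSeq (GRCm38.p6, the assembly of mm10) from 250 bases before to 50 after the annotated start, and all 5 members matched by symbol. Capitals mark matches on either strand to the NRF1 core GCATGCGC, the GC box GGGCGG, the CCAAT box CCAAT, the TATA box TATAA or the YY1 core AANATGGC.
Pdk3 (chrX:93832101-93832400, minus strand): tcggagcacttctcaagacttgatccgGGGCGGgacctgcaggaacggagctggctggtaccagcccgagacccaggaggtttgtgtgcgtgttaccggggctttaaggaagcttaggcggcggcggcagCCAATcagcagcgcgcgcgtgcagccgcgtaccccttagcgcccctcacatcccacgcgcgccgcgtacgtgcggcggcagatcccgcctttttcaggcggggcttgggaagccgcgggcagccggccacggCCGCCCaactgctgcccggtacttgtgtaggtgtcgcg
Aifm1 (chrX:48513514-48513813, minus strand): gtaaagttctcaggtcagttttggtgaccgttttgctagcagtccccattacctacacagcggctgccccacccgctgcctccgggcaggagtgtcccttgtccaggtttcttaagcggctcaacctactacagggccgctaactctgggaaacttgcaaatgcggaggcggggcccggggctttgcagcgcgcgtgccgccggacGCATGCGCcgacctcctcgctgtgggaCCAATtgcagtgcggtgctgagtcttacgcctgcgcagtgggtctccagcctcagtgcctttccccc
Slc25a5 (chrX:36795347-36795646, plus strand): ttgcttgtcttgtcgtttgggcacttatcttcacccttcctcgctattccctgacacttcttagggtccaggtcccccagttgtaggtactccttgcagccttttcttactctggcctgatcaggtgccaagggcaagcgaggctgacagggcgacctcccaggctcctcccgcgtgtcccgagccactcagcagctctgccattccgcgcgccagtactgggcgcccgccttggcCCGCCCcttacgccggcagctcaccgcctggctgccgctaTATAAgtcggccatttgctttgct

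Aifm1 held the NRF1 core, named for a transcription factor known for its targets among mitochondrial genes, 44 bases before its start. That word is found in 2.71% of 32851 promoter windows. Slc25a5 had the only TATA box match, a word found in 24.9% of windows, at 27 bases after the RefSeq start and 28 before the start in the deposited table. The GC box was matched in Pdk3 at 2 places and in Slc25a5 at 1 (35.7% of windows). The CCAAT box was matched once each in Pdk3 and Aifm1 and 4 times in Ndufb11 (37.4% of windows), and the YY1 core in Ndufb11 alone (6.05%). Fundc1 had no match, but its window (17571958 to 17572257) lies inside the deposited gene, which starts at 17572297 on the minus strand. The bases before that deposited start were thus not searched for Fundc1. No pair of matches overlapped in the windows shown. All 5 windows were richer in CpG than the median window of 7, with 35 in Pdk3, 21 in Aifm1, 18 in Slc25a5, 14 in Ndufb11 and 12 in Fundc1. These matches are words in a window, and factor binding was not measured.

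After 24 h of doxycycline in WT cells, Pdk3 and Aifm1 fell and the other 3 members did not pass the test. Pdk3 was at 0.499 and 0.513 without doxycycline and at 0.225 and 0.241 after 24 h. The groups did not overlap, and the change was -0.274 ± 0.0182 (SE from limma, adjusted p = 1.50e-07). Its 129S reads per Cast read went from 1.03 to 0.303. Aifm1 was at 0.553 and 0.550 and then at 0.278 and 0.290, again without overlap. The change was -0.267 ± 0.0149 (adjusted p = 5.24e-08), and 129S reads per Cast read went from 1.23 to 0.398. In this comparison 88.9% of the 270 genes were called lower, so 2 of 5 members is below the share over all genes. Overlap of groups, here and below, was read for the members only, and its share over all genes was not computed.

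Ndufb11 was at 0.476 and 0.441 without doxycycline and at 0.433 and 0.362 after 24 h. The groups did not overlap, but the change of -0.0614 ± 0.0299 did not pass (95% interval -0.128 to 0.00475, adjusted p = 0.0712). Fundc1 was at 0.531 and 0.590 and then at 0.539 and 0.461. These groups overlapped, with a change of -0.0604 ± 0.0280 (interval -0.122 to 0.00148, adjusted p = 0.0601). When WT 24 h replicate 1 was left out, Ndufb11 passed at -0.0969 (adjusted p = 0.0199) and Fundc1 at -0.0996 (adjusted p = 0.00876). Fundc1 also passed without WT 0 h replicate 1, at -0.0899 (adjusted p = 0.0248). Leaving out a single library thus changed both calls, but other omissions shrank the changes. The smallest were -0.0259 for Ndufb11 and -0.0213 for Fundc1.

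Slc25a5 was at 0.463 and 0.471 without doxycycline and at 0.462 and 0.581 after 24 h. Its treated libraries lay on either side of the untreated ones, and the change was 0.0544 ± 0.0473 (interval -0.0503 to 0.159, adjusted p = 0.287). Without WT 24 h replicate 2 the change was -0.00561, so its sign rested on that library. It was nevertheless the highest of the 270 changes, rank 270 counted from the most negative. Ndufb11 was at rank 253, Fundc1 at 254, Aifm1 at 69 and Pdk3 at 62. The median change over all genes was -0.197, which lies outside the 95% intervals of all 5 members. The interval of Pdk3, for example, ran from -0.314 to -0.233. The plot of ratios in every library shows these values next to those of the other lines.

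**Figure D1:**
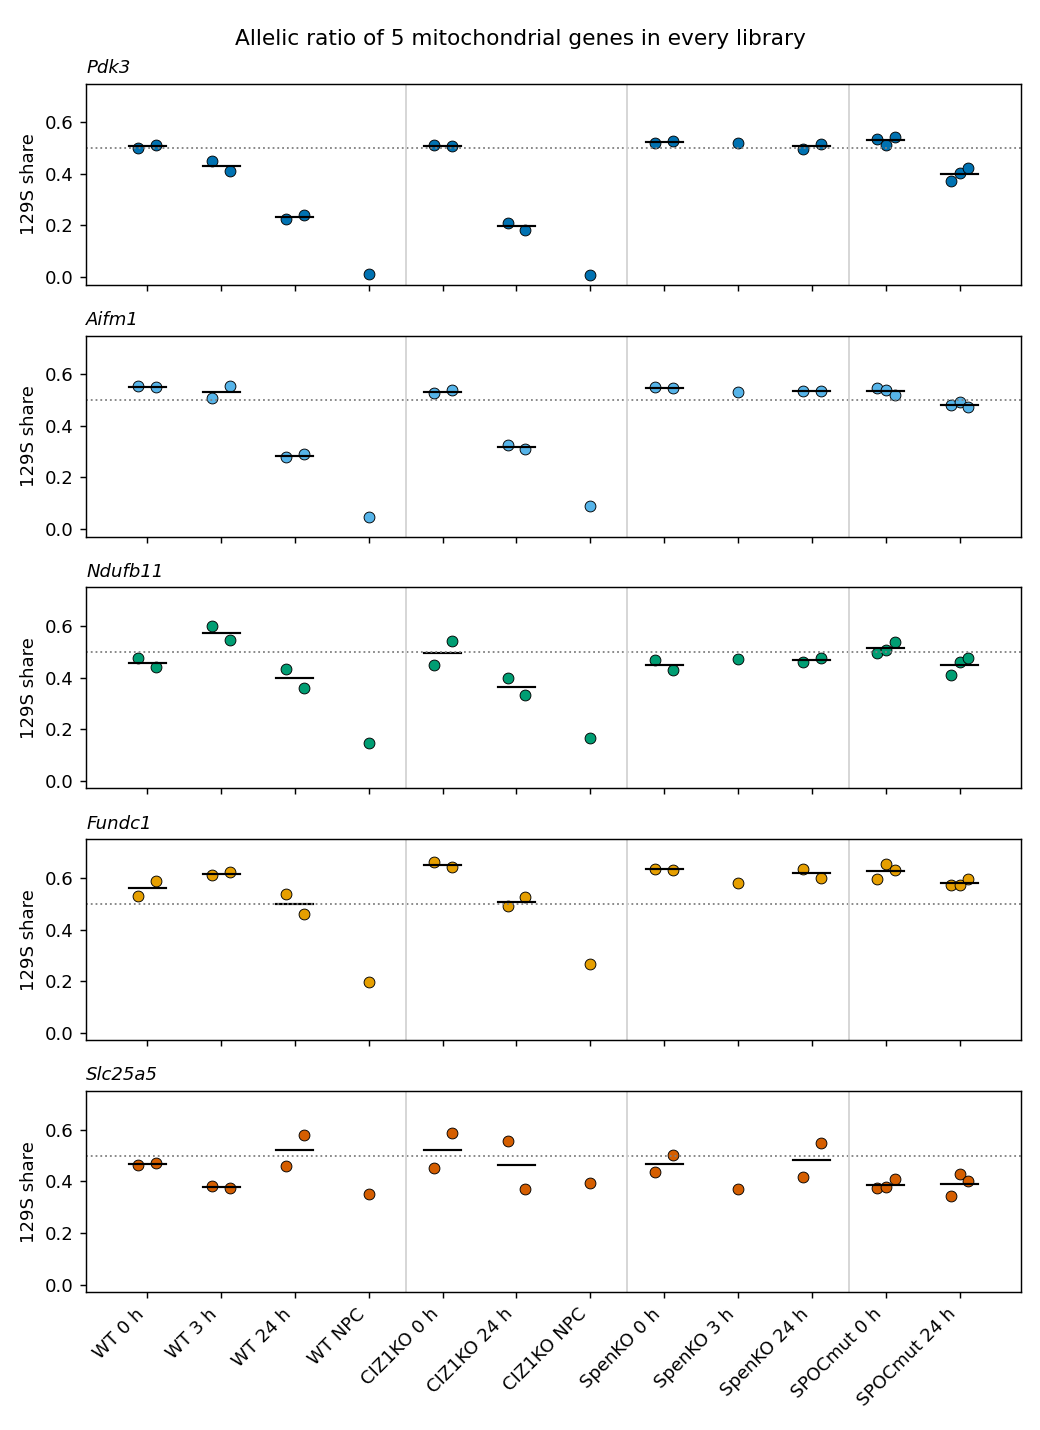
Allelic ratio (129S share of allele-assigned reads, y axis) of Pdk3, Aifm1, Ndufb11, Fundc1 and Slc25a5 in the 23 libraries, by line and time on the x axis; points are libraries, bars the group means where a group has 2 or 3, and the dotted line marks 0.5. Pdk3 and Aifm1 sit between 0.184 and 0.325 in WT and CIZ1KO at 24 h, whereas Slc25a5 stays between 0.344 and 0.588 in all 23 libraries.

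At 3 h in WT, Pdk3 was the only member called lower. Its libraries were at 0.449 and 0.410, below both at 0 h, a change of -0.0765 ± 0.0182 (adjusted p = 0.0104). Over all genes 17% were called lower and 5.19% higher. The call was lost without WT 3 h replicate 2 (-0.0568, adjusted p = 0.0880) and without WT 0 h replicate 2 (-0.0694, adjusted p = 0.0633). It was also lost with only the libraries compared in the fit (adjusted p = 0.124) and under Benjamini-Yekutieli adjustment (0.0642). Aifm1 was at 0.508 and 0.553, across its values at 0 h (-0.0207 ± 0.0149, adjusted p = 0.386).

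Ndufb11 rose at 3 h, to 0.602 and 0.547, by 0.116 ± 0.0299 (adjusted p = 0.0166), and rank 260 of 270 placed it among the largest rises. This call too was lost without WT 3 h replicate 1 (0.0881, adjusted p = 0.125), without WT 0 h replicate 2 (0.0984, adjusted p = 0.0974), with only the libraries compared (adjusted p = 0.109) and under Benjamini-Yekutieli adjustment (0.103). Fundc1 was at 0.610 and 0.622, above both 0 h libraries, with a change of 0.0554 ± 0.0280 that did not pass (adjusted p = 0.193). Slc25a5 was at 0.383 and 0.374, below both 0 h libraries, with a change of -0.0889 ± 0.0473 (adjusted p = 0.218). At this early time the 5 genes thus lay on either side of the median change of all genes, -0.0205.

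From 3 h to 24 h, 4 members fell, against 85.6% of all genes, and Slc25a5 rose, against 0.37% called higher. Aifm1 fell by 0.246 ± 0.0149 (adjusted p = 1.12e-07) and Pdk3 by 0.197 ± 0.0182 (adjusted p = 2.42e-06). Ndufb11 fell by 0.177 ± 0.0299 (adjusted p = 2.32e-04) and Fundc1 by 0.116 ± 0.0280 (adjusted p = 0.00262). The rise of Slc25a5 was 0.143 ± 0.0473 (adjusted p = 0.0152). It was lost without WT 24 h replicate 2 (0.0833, adjusted p = 0.151), without WT 3 h replicate 2 (0.139, adjusted p = 0.0581), with only the libraries compared (adjusted p = 0.0589) and under Benjamini-Yekutieli adjustment (0.0939). These differences share the 24 h libraries with the comparison against 0 h.

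**Figure D2:**
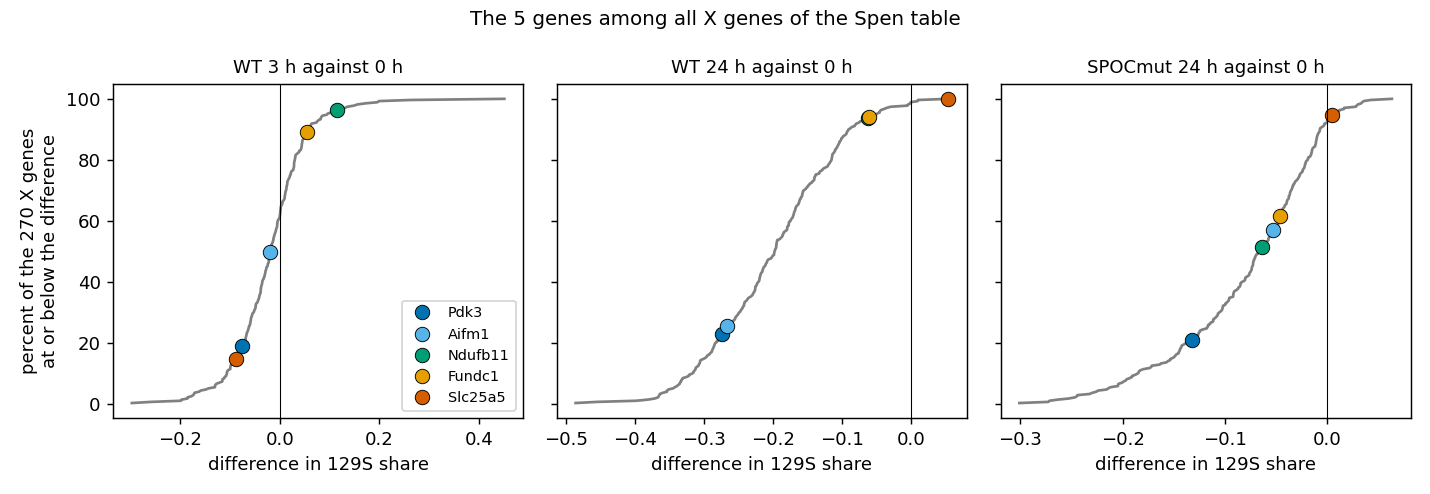
Difference in 129S share (x axis) against the percent of the 270 X genes at or below it (y axis) for WT at 3 h, WT at 24 h and SPOCmut at 24 h, each against 0 h; the grey line holds all genes and coloured points are the 5 members. At 24 h in WT, Slc25a5 is at the top end (0.0544), Ndufb11 and Fundc1 nearly coincide (-0.0614 and -0.0604), and Aifm1 and Pdk3 are below -0.26.

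The measured genes next to each member were compared with it at 24 h in WT, as a description without a test of member against neighbour. Fundc1 stands between Efhc2 at -0.0349 ± 0.0348 (adjusted p = 0.349) and Kdm6a, a histone demethylase known to escape X inactivation, at -0.0291 ± 0.00868 (adjusted p = 0.00871). The next genes outward, not among the neighbours set beforehand, were Maob at -0.156 ± 0.0506 and Chst7 at -0.168 ± 0.0531. Fundc1 thus lay within a run of 3 measured genes with small changes, Kdm6a being 590 kb away. The ends of this run were read from the same values. Efhc2 is a weak comparator, at 0.795 and 0.792 without doxycycline and at 0.835 and 0.683 after 24 h. In the NPC it was at 0.0488 in WT and 0.0682 in CIZ1KO. Ndufb11 stands between Jade3 at -0.225 ± 0.0134 and Rbm10, which encodes an RNA-binding splicing regulator, at -0.140 ± 0.0216. At 3 h these 2 did not pass, with -0.0378 for Jade3 and -0.0143 for Rbm10, while Ndufb11 rose. The strand setting of the counting is not given in the sources used here, so reads in the 63 shared bases of Ndufb11 and Rbm10 cannot be assigned with certainty.

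Slc25a5 follows Slc25a43, another carrier of the same family, 18.3 kb upstream, which fell by 0.275 ± 0.117 (adjusted p = 0.0440). On its other side, 49.7 kb away, C330007P06Rik had a ratio of exactly 1 in 14 of the 17 libraries and never less than 0.998, and the next gene, Ube2a, was at 1 in all 17. Besides Xist, these were the only genes of that table above 0.9 in all libraries, and in the CIZ1 table C330007P06Rik was at 1 in 8 of 10. The ratio of these 2 genes therefore carries no measure of silencing. Beyond them Upf3b, chosen after its value was seen, fell by 0.115 ± 0.0252 (adjusted p = 0.00137). Aifm1 stands between Elf4 at -0.360 ± 0.0225 and Zfp280c at -0.322 ± 0.0163, and Pdk3 between Pcyt1b at -0.288 ± 0.0223 and AU015836 at -0.238 ± 0.0475. These 4 neighbours passed the test, as Aifm1 and Pdk3 did.

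**Figure D3:**
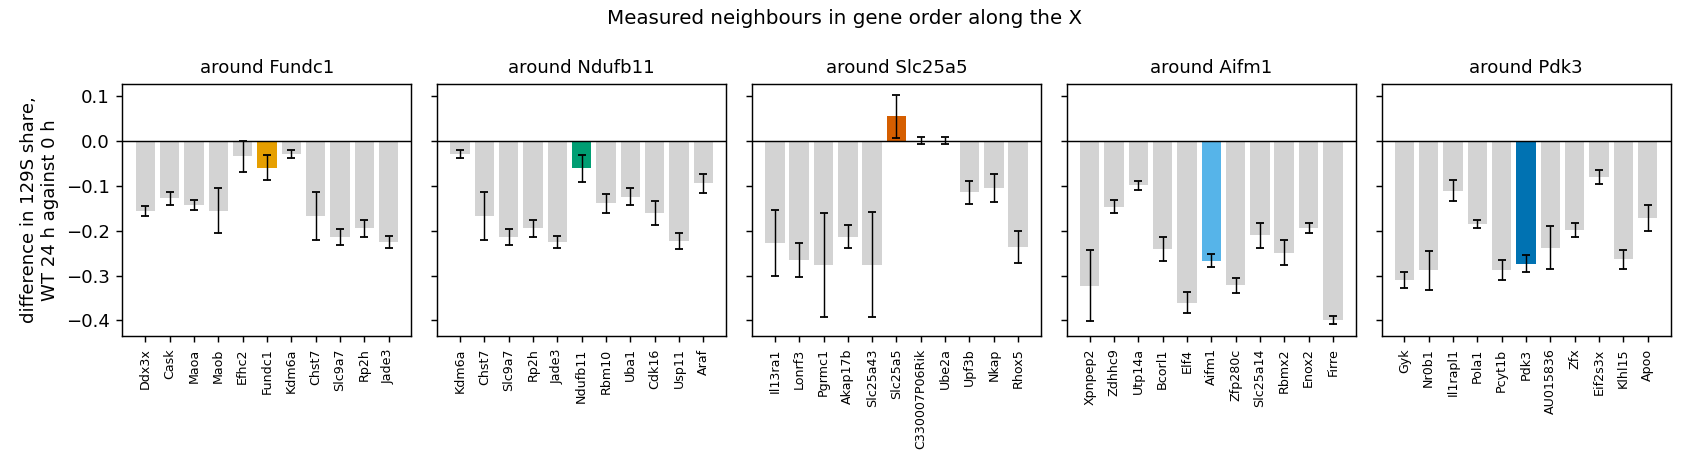
Difference in 129S share at 24 h against 0 h in WT (y axis) for each member (coloured) and the 5 measured genes on either side in gene order (grey, x axis); error bars are the SE from limma. Fundc1 is flanked by Efhc2 and Kdm6a with similarly small changes, whereas Slc25a5 (0.0544) differs in sign from Slc25a43 (-0.275) and adjoins C330007P06Rik and Ube2a, which are fixed at or near a ratio of 1.

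The 3 members that did not pass at 24 h in WT are also the shortest of the 5. Ndufb11 spans 2.24 kb, and 0.741% of the genes in the table are shorter. Slc25a5 spans 3.16 kb, Fundc1 15.7 kb, Aifm1 38.6 kb and Pdk3 67.5 kb. Of the 115 other genes under 20 kb, 93 fell (80.9%), with a median change of -0.184. Of the 150 others of 20 kb or more, 145 fell (96.7%), with a median change of -0.213 and a median SE of 0.0215 against 0.0381 for the short genes. The limit of 20 kb was chosen after the data were seen. The spread between libraries within groups (SD in the Spen table) was 0.0505 for Slc25a5, 0.0313 for Ndufb11, 0.0291 for Fundc1, 0.0179 for Pdk3 and 0.0139 for Aifm1, against a median of 0.0278 over genes. The part of length in the differences between members was not tested.

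Slc25a5 also differs from the rest in its copies. Among GENCODE vM21 transcripts, 5 pseudogenes matched its longest coding transcript over at least 50% of its length at 90% identity or more, none of them on the X. Ndufb11 had 1 such pseudogene, and Aifm1, Pdk3 and Fundc1 had 0. How reads that fit several copies were treated is not given in the sources used here, so the ratio of Slc25a5 is uncertain, and the part of its copies was not tested.

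In CIZ1KO cells 4 of 5 members fell after 24 h, against 85% of the 254 genes in that table. Pdk3 went from 0.512 and 0.507 to 0.209 and 0.184, by -0.313 ± 0.0169 (adjusted p = 7.72e-05). Aifm1 went from 0.526 and 0.539 to 0.325 and 0.311, by -0.214 ± 0.0154 (adjusted p = 1.25e-04). Both genes had treated libraries far below the untreated ones. Fundc1 went from 0.661 and 0.643 to 0.491 and 0.525, also without overlap (-0.144 ± 0.0339, adjusted p = 0.00816). Ndufb11 went from 0.448 and 0.543 to 0.397 and 0.333 (-0.130 ± 0.0431, adjusted p = 0.0298). Its call was lost without CIZ1KO 0 h replicate 2 (-0.0826, adjusted p = 0.131), without CIZ1KO 24 h replicate 2 (-0.0984, adjusted p = 0.144), with only the libraries compared (adjusted p = 0.0660) and under Benjamini-Yekutieli adjustment (0.182). Slc25a5 was at 0.452 and 0.588 and then at 0.557 and 0.370, with wide and overlapping groups (-0.0569 ± 0.0777, adjusted p = 0.506).

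Whether the response to doxycycline differed between CIZ1KO and WT was tested as an interaction, and limma called 0 of 5 members (background 0%). Before adjustment, 0 members had a p under 0.05, against 4 of 254 genes on the lower side and 7 on the higher side. The difference, CIZ1KO minus WT, was 0.0527 ± 0.0217 for Aifm1 (interval -0.000795 to 0.106, adjusted p = 0.851), the side of a smaller fall in CIZ1KO. For Pdk3 it was -0.0397 ± 0.0239 (interval -0.0987 to 0.0193), and for Fundc1 -0.0837 ± 0.0479 (interval -0.202 to 0.0344). For Ndufb11 it was -0.0689 ± 0.0610 and for Slc25a5 -0.111 ± 0.110. The interval for Slc25a5 ran from -0.382 to 0.159, so these values do not show an equal response in the 2 lines.

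In SpenKO cells limma called 0 of 5 members at 24 h, against 0.741% of genes called lower. Before adjustment, 0 members had a p under 0.05, against 18 of 270 genes on the lower side and 1 on the higher side. Pdk3 was at 0.519 and 0.527 without doxycycline and at 0.498 and 0.514 with it (-0.0167 ± 0.0182, adjusted p = 0.923). Aifm1 was at 0.550 and 0.545 and then at 0.536 and 0.534 (-0.0121 ± 0.0149, adjusted p = 0.940). In both genes the treated libraries lay below the untreated ones, by less than the error. Ndufb11 changed by 0.0188 ± 0.0299, Fundc1 by -0.0158 ± 0.0280 and Slc25a5 by 0.0140 ± 0.0473, each with overlapping libraries. The lone 3 h library had Pdk3 at 0.518, Aifm1 at 0.530, Ndufb11 at 0.472, Fundc1 at 0.579 and Slc25a5 at 0.372. Slc25a5 was thus as low in it as in the WT libraries at 3 h, while Pdk3 stayed near its 0 h values.

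The response to 24 h of doxycycline differed between SpenKO and WT for Aifm1 and Pdk3, where 76.7% of all genes passed with the smaller fall in SpenKO. The difference was 0.255 ± 0.0211 for Aifm1 (interval 0.208 to 0.302, adjusted p = 2.45e-06) and 0.257 ± 0.0258 for Pdk3 (interval 0.200 to 0.314, adjusted p = 8.62e-06). It did not pass for Ndufb11 (0.0802 ± 0.0423, adjusted p = 0.106), Fundc1 (0.0447 ± 0.0396, adjusted p = 0.305) or Slc25a5 (-0.0403 ± 0.0669, adjusted p = 0.585). Without WT 24 h replicate 1 the difference for Ndufb11 was 0.116, and over all left-out libraries it ran from 0.0447 to 0.116. At rank 2 of 270 from the most negative, Slc25a5 had nearly the smallest value of this difference.

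In SPOCmut cells Pdk3 and Aifm1 fell at 24 h, by less than in WT, against 49.6% of all genes called lower. Pdk3 was at 0.536, 0.514 and 0.544 in clones C10, C2 and G1 and fell to 0.373, 0.402 and 0.422 (-0.132 ± 0.0149, adjusted p = 3.07e-05). Aifm1 was at 0.548, 0.540 and 0.518 and fell to 0.481, 0.492 and 0.474 (-0.0534 ± 0.0122, adjusted p = 0.00389). Each clone had lower values of both genes after treatment. Ndufb11 was at 0.497, 0.506 and 0.538 and then at 0.412, 0.461 and 0.478, lower in all 3 clones (-0.0635 ± 0.0244, adjusted p = 0.0508). With the clone as a block it passed, at an adjusted p of 0.0120, and without clone G1 at 24 h (replicate 3) it passed at -0.0772 (adjusted p = 0.0376). Over all left-out libraries the change of Ndufb11 ran from -0.0772 to -0.0443.

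Fundc1 in SPOCmut was at 0.596, 0.654 and 0.629 and then at 0.572, 0.571 and 0.597, lower within each clone but with overlapping groups (-0.0464 ± 0.0229, adjusted p = 0.117). Slc25a5 was at 0.375, 0.377 and 0.409 and then at 0.344, 0.430 and 0.402, lower in 2 clones and higher in C2 (0.00469 ± 0.0386, adjusted p = 0.930). Its ratio in SPOCmut without doxycycline lay below both WT libraries, but the difference between the lines of -0.0800 ± 0.0432 did not pass (adjusted p = 0.472).

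Tested against WT, the SPOCmut response was weaker for Aifm1 by 0.214 ± 0.0193 (interval 0.171 to 0.256, adjusted p = 1.03e-05) and for Pdk3 by 0.141 ± 0.0236 (interval 0.0890 to 0.193, adjusted p = 4.93e-04). Over all genes 58.5% passed in this direction. Against SpenKO, Pdk3 fell further in SPOCmut, by -0.116 ± 0.0236 (interval -0.168 to -0.0636, adjusted p = 0.00588), where 23% of genes passed. Aifm1 did not pass there (-0.0413 ± 0.0193, interval -0.0839 to 0.00128, adjusted p = 0.148). For Ndufb11, Fundc1 and Slc25a5 neither difference passed. Ndufb11 differed by only -0.00204 between SPOCmut and WT, with an interval of -0.0875 to 0.0834.

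**Figure D4:**
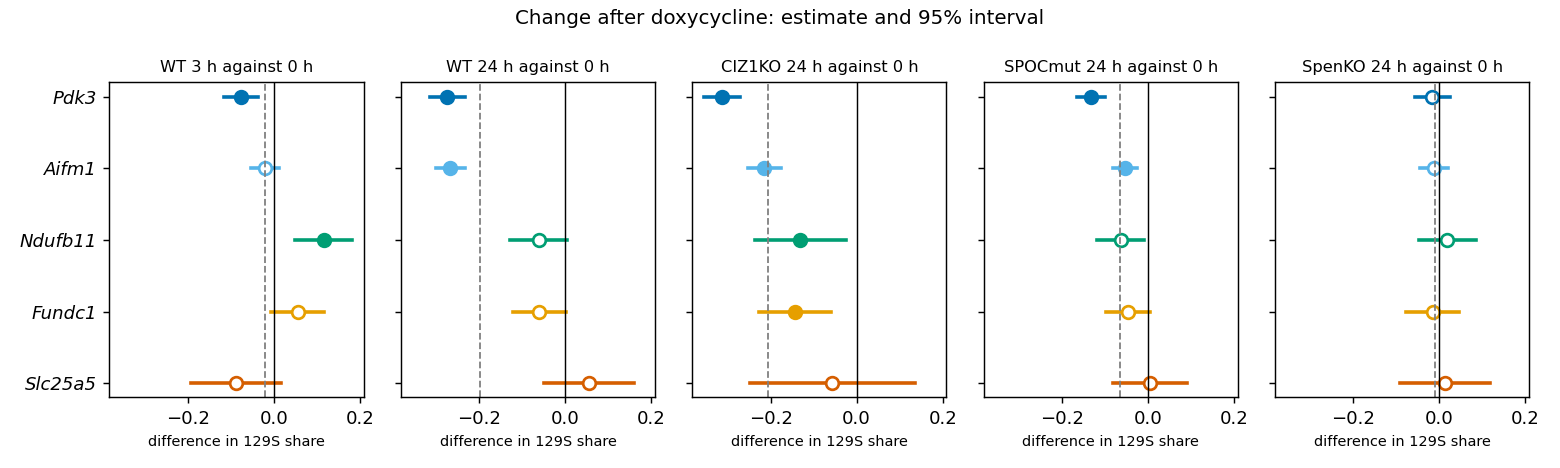
Change in 129S share after doxycycline (x axis) for each member (y axis) in 5 comparisons; points are limma estimates, filled where the adjusted p is under 0.05, lines are 95% intervals and the dashed line is the median change over all genes of the table. Pdk3 runs from -0.313 in CIZ1KO through -0.274 in WT and -0.132 in SPOCmut to -0.0167 in SpenKO, and the intervals of Slc25a5 include 0 in every panel.

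Without doxycycline the lines were compared with WT, and 0 members differed in CIZ1KO, SpenKO or SPOCmut in limma (background 0% for each). At an unadjusted limma p under 0.05 there was 1 member in each line, Fundc1, which was higher than in WT. Over all genes, 18 of 270 were higher at that level and 4 lower in SpenKO. In SPOCmut 26 of 270 were higher and 8 lower, and in CIZ1KO 12 of 254 were higher and 4 lower. Fundc1 was at 0.652 ± 0.0131 in CIZ1KO, 0.634 ± 0.00101 in SpenKO (both SD, n = 2) and 0.627 ± 0.0293 in SPOCmut (n = 3), against 0.560 ± 0.0416 in WT (n = 2). All of these libraries lay above both WT libraries, and the 3 comparisons share those WT libraries. The adjusted p was 0.663 for CIZ1KO, 0.546 for SpenKO and 0.390 for SPOCmut. Aifm1 at 0 h was between 0.518 and 0.553 and Pdk3 between 0.499 and 0.544 over the 4 lines.

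In the NPC, for which each line had 1 library and no test was made, the ratios were the lowest seen for Pdk3, Aifm1, Ndufb11 and Fundc1. Pdk3 was at 0.0125 in WT and 0.00771 in CIZ1KO, lower than in any ES library, and 17.7% and 12.2% of the 254 genes were lower still. Aifm1 was at 0.0449 and 0.0874, close to the library medians of 0.0546 and 0.0830. Ndufb11 was at 0.146 and 0.167 and Fundc1 at 0.195 and 0.266, well above those medians. Slc25a5 stood at 0.352 in WT and 0.395 in CIZ1KO, and 95.3% and 96.9% of the genes had lower ratios. From lowest to highest, both NPC libraries had the order Pdk3, Aifm1, Ndufb11, Fundc1, Slc25a5. The group means of WT at 24 h had it too, but WT 24 h replicate 1 did not (Fundc1 0.539, Slc25a5 0.462), nor did the means of CIZ1KO at 24 h (Fundc1 0.508, Slc25a5 0.463). The NPC differ from the ES cells in cell type, time and medium, which cannot be told apart.

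Over the 12 groups, the mean ratio of Pdk3 ran from the NPC through CIZ1KO at 24 h (0.196 ± 0.0181) and WT at 24 h (0.233 ± 0.0112, both SD, n = 2) to SPOCmut at 24 h (0.399 ± 0.0249, n = 3) and WT at 3 h (0.430 ± 0.0278, n = 2). The libraries of the last 2 groups overlapped, and the remaining groups lay between 0.506 and 0.531. Aifm1 had the NPC lowest, then WT at 24 h (0.284 ± 0.00854), CIZ1KO at 24 h (0.318 ± 0.0102, both n = 2) and SPOCmut at 24 h (0.482 ± 0.00879, n = 3), with the other groups between 0.530 and 0.551. Ndufb11 ran from the NPC to 0.365 in CIZ1KO and 0.397 in WT at 24 h, which overlapped, and up to 0.574 at 3 h in WT. Fundc1 ran to 0.500 and 0.508 in WT and CIZ1KO at 24 h, also overlapping, and up to 0.652 in CIZ1KO at 0 h. Slc25a5 ran from 0.352 in WT NPC to 0.522 in WT at 24 h, and every pair of neighbouring groups with at least 2 libraries each overlapped.

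A wider list of 37 X-linked genes was chosen for products linked to mitochondria, mitophagy or mitochondrial apoptosis. That link was not checked for each gene in mouse. The list had 18 members in the Spen table, the 5 included. Of the 13 others, 11 fell at 24 h in WT and 0 rose, with a median change of -0.170 against -0.197 over all genes, of which 88.9% fell. The glycerol kinase gene Gyk fell by 0.310 ± 0.0175, and Xiap, an inhibitor of caspases, by 0.240 ± 0.0272. The carrier genes Slc25a43 and Slc25a14 fell by 0.275 ± 0.117 and 0.211 ± 0.0278. Taz, which encodes the cardiolipin-remodelling enzyme tafazzin, fell by 0.194, Apoo, a component of the cristae-organising complex, by 0.171, and Mtcp1 by 0.170. The monoamine oxidase genes Maob and Maoa fell by 0.156 and 0.143, Fundc2, a relative of Fundc1, by 0.110, and Idh3g, a subunit of isocitrate dehydrogenase, by 0.105. Pin4 at -0.0911 ± 0.0417 (adjusted p = 0.0583) and Timm17b, an inner membrane translocase subunit gene, at -0.0632 ± 0.0621 (adjusted p = 0.343) did not pass.

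At 3 h in WT, 2 of the same 13 genes were called lower and 0 higher, against 17% and 5.19% of all genes. At 24 h, 6 were called lower in SPOCmut (49.6% of all genes) and 0 in SpenKO (0.741%). Of the 12 in the CIZ1 table, 11 fell in CIZ1KO (85% of all genes). Their medians were -0.0223, -0.0577, 0.00305 and -0.178 in that order, against -0.0205, -0.0658, -0.00937 and -0.207 over all genes. Among all 18 genes Gyk, Slc25a43 and the member Pdk3 had the most negative changes at 24 h in WT. The place of Slc25a43 is uncertain, since its SE was 0.117, against 0.0175 for Gyk and 0.0182 for Pdk3. Slc25a5 was the only one of the 18 with a change above 0.

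The genes most like each member were taken as those with the smallest root mean square difference of the ratio over the 17 libraries of the Spen table. They were Klhl15 (0.0226) and Rbmx (0.0235) for Pdk3 and Fmr1nb (0.0256) and Bcap31 (0.0269) for Aifm1. For Fundc1 they were Utp14a (0.0326) and 1810030O07Rik (0.0351), and for Ndufb11 Maoa (0.0464) and Atp6ap2 (0.0473). Slc25a5 had no gene as near, with Rpgr at 0.0671 and Eif2s3x, a translation initiation factor gene, at 0.0804. These values are a description over libraries that share lines and treatments. They also include each gene's spread between libraries within groups, which was largest of the 5 members for Slc25a5 (SD 0.0505).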

How the data were processed

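Per the labels' protocols, libraries were prepared from chromatin-associated RNA with the TruSeq stranded kit. The authors deposited, per gene and library, the fraction of allele-assigned reads from 1 allele, without read counts. The 3 tables are a Spen table (270 X genes, 17 libraries), a CIZ1 table (254 X genes, 10 libraries) and a chromosome 15 table that was not used. The X tables share 248 genes and 4 WT libraries with identical values, and no value is missing. Build mm10 and the tools STAR 2.4.2a, Bowtie2 2.3.2, edgeR, bedtools, SAMtools and featureCounts, with no roles, stand in the submitters' processing notes. The numerator is not named and was read as 129S from Xist.

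Raw ratios were modelled in R 4.3.3 (limma 3.58.1), all libraries of a table in 1 fit, with Benjamini-Hochberg adjustment over all its genes. Calls were made at adjusted p below 0.05, and the procedure was tested on simulated data. WT contrasts came from the Spen table, CIZ1KO contrasts from the CIZ1 table. Near copies were sought with blastn 2.17.0. Columns marked Dox without a time were taken as 24 h. Replicates shared at most 1.11% of exactly equal values. SPOCmut libraries pair by clone. The correlations of their deviations were -0.017 (C10), -0.113 (C2) and 0.148 (G1).

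Genes set beforehand to be named were the 5 members, the listed mitochondrial genes present, the nearest measured gene on each side of a member, the 2 most similar genes and Xist. Genes farther out from Fundc1 and Slc25a5 were added. The members and lists were chosen with earlier results of these data known. Alternatives were log2 odds (ratios held within 0.01 and 0.99), only the libraries compared, trended robust eBayes, Benjamini-Yekutieli adjustment, a replicate block, leaving out each library, and, added after seeing the data, the CIZ1 table for WT and crossed CIZ1KO numbers.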

Additional observations from a re-analysis of the deposited data

Results flagged for a closer look

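The 24 h response differed between lines by an interaction test in limma for 5 results. Aifm1 responded less in SpenKO than in WT by 0.255 (207 of 270 genes passed in that direction) and less in SPOCmut than in WT by 0.214 (158 of 270). Pdk3 responded less in SpenKO than in WT by 0.257 and less in SPOCmut than in WT by 0.141. Pdk3 also fell further in SPOCmut than in SpenKO, at -0.116 (62 of 270). The ES cell groups held 2 or 3 libraries, too few for a test of single outlying libraries.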

How the results depend on the processing

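Depth is unknown, groups hold 2 or 3 libraries, and intervals cover only the spread between libraries. The number of members called at 24 h in WT was 2 and ranged from 2 to 4 as single libraries were left out. At 3 h in WT it was 2, was 0 with only the libraries compared and 0 under Benjamini-Yekutieli adjustment, and ranged from 0 to 2 over left-out libraries. The cause was not tested. For the other comparisons the number stayed within 1.5 times its value under every alternative run. Where a group was left with 1 library, that library was assumed to vary like the others.

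Signs changed for 17 results, only when a library was left out, and the smallest adjusted p among them was 0.287 with all libraries. These gene-level ranges over left-out libraries follow. For Slc25a5 the change ran from -0.00561 to 0.114 at 24 h in WT, from -0.151 to 0.0369 in CIZ1KO, from -0.0522 to 0.0803 in SpenKO and from -0.0144 to 0.0288 in SPOCmut. Its difference in response ran from -0.107 to 0.0259 (SpenKO minus WT), -0.110 to 0.0103 (SPOCmut minus WT) and -0.0756 to 0.0569 (SPOCmut minus SpenKO). At 0 h against WT it ran from -0.0317 to 0.0363 in SpenKO and -0.0147 to 0.121 in CIZ1KO. For Ndufb11 the ranges were -0.00164 to 0.0392 at 24 h in SpenKO, -0.0376 to 0.0335 for the response of SPOCmut minus WT, and at 0 h -0.0301 to 0.0107 in SpenKO and -0.0108 to 0.0848 in CIZ1KO. For Fundc1 they were -0.0337 to 0.00221 at 24 h in SpenKO and -0.0251 to 0.0532 for the response of SPOCmut minus WT. Aifm1 at 3 h in WT ran from -0.0431 to 0.00171, and Pdk3 at 0 h in CIZ1KO from -0.00386 to 0.0104.

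Outside SPOCmut, libraries share only a replicate number (correlation of deviations 0.112 in SpenKO, -0.107 in CIZ1KO and -0.0883 to 0.161 in WT). With the replicate block, Ndufb11 passed at 24 h in WT (adjusted p = 0.0156) and for SpenKO minus WT (0.0254) and did not pass in CIZ1KO (0.0547), so the members called were 3, 3 and 3. With the clone block the count in SPOCmut was 3, and other block calls did not change. Crossing the CIZ1KO numbers, chosen after seeing the data, left 4 members called in CIZ1KO and 0 for CIZ1KO minus WT. Benjamini-Yekutieli adjustment ended the calls of Ndufb11 in CIZ1KO (0.182) and of Slc25a5 from 3 h to 24 h (0.0939). Trended robust variances let Ndufb11 pass in SPOCmut (0.0499).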
